A study of Mus musculus with 75 samples.

Results

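A list of 35 genes that mark astrocytes was followed through the RNA sequencing libraries of mouse brain, all of which came from C57BL/6 mice at postnatal day 21. The members are a list of names and were found by symbol among the 37310 gene identifiers of the cortex and nuclei files. All 35 were found there and among the 55487 identifiers of the hippocampus files. DNMT3A is an enzyme that places methyl groups on cytosine, and its gene yields a long isoform, DNMT3A1, with a disordered N-terminal domain, and a short isoform, DNMT3A2, without it. The groups were cerebral cortex of Dnmt3a1-/- (3 libraries), of Dnmt3a2-/- (2) and of Dnmt3a1_delta_N, named for a loss of the N-terminal part of the long isoform (3). Wild type cortex had 8 libraries in 3 numbering series, plain, r and n, of 3, 2 and 3 libraries. They served as controls of Dnmt3a1-/-, Dnmt3a2-/- and Dnmt3a1_delta_N in that order, a pairing of series with mutant that the labels do not state. From hippocampus came 3 Dnmt3a1-/- libraries and 3 of wild type, and nuclei of cortical neurons, sorted with an antibody against NeuN, had 2 labelled Dnmt3a1-/- and 2 wild type. How the alleles were made, and in which cells they act, is not given in the sources used here. The 75 samples of the series also include 49 of other assays that were not analysed here.

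Astrocytes are glial cells that clear glutamate and potassium after synaptic firing, form a network through gap junctions, line blood vessels with water channels, feed neurons from glycogen and glucose, and secrete lipoproteins and matrix proteins that act on synapses. Around weaning age in the mouse they are still maturing, losing radial glial genes such as Fabp7 and gaining transporters. Values are reads per gene scaled to the library's gene total, as counts per mega counts (CPM). Differences are log2 fold changes, mutant relative to wild type, each followed by its standard error after ±, from edgeR's quasi-likelihood test, and a gene was called where the Benjamini-Hochberg adjusted p over all genes tested was under 0.05.

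The stretches before the start of 4 members, chosen after their values were seen, are shown first. These genes were among those that moved most in Dnmt3a1-/- cortex and differ widely in CG, a dinucleotide that DNMT3A methylates. Each stretch is the 250 bases upstream of the start, from RefSeq on build GRCm38.p6, 5′ to 3′ along the gene, with each CG in capitals. Thbs4 (chr13:92794819-92795068, minus strand) and Agt (chr8:124569707-124569956, minus strand) were higher in that mutant, and Lcat (chr8:105943403-105943652, minus strand) and Fabp7 (chr10:57784673-57784922, plus strand) were lower.
Thbs4: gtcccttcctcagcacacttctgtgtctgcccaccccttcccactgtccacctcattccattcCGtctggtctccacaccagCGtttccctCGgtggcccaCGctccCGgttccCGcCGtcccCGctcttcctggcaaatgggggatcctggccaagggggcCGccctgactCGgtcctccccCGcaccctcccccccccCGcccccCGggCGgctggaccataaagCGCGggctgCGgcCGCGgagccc
Agt: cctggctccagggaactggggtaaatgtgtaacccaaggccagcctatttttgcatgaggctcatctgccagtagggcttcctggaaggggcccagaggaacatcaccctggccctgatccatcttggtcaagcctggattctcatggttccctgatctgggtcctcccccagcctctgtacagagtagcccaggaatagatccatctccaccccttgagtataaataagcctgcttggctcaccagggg
Lcat: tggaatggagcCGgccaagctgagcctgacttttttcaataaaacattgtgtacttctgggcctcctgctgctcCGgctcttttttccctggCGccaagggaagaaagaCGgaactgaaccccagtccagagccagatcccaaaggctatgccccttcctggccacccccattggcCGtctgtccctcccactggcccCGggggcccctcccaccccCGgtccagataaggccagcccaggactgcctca
Fabp7: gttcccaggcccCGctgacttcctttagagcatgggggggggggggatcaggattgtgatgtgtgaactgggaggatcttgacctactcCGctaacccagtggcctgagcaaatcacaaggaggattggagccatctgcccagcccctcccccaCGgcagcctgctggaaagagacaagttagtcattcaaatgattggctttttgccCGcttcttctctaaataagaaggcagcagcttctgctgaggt
The Thbs4 stretch held 19 CG, that of Lcat 7, that of Fabp7 4 and that of Agt 0. Such stretches were at hand for 29 of the 35 members, some with more than 1 start, and held a median of 7 CG, against 6 over all 32851 promoter windows (quartiles 2 and 16). The 10 members called higher with a window had a median of 6 CG and the 3 called lower a median of 7. Of the 17 called members, Scara3, Clu, Sparcl1 and Aqp4 had no window, and no relation between CG count and change was tested.

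Gene totals ran from 8.7 to 39.0 M counts per library (M, mega), and each member had at least 30 reads in every cortex library, 61 in every hippocampus library and 4 in every nuclei library. Dnmt3a itself was at 73.2, 80.8 and 74.0 CPM in Dnmt3a1-/- cortex against 152, 165 and 146 in the plain wild type series, and fell to a similar degree in hippocampus (log2 fold change -1.04). In nuclei labelled Dnmt3a1-/- it was at 382 and 369 CPM against 405 and 398, and the difference did not pass (-0.10 ± 0.15, edgeR adjusted p = 0.894). In Dnmt3a2-/- and Dnmt3a1_delta_N cortex Dnmt3a was at 132 and 144 and at 135, 139 and 139 CPM, and neither group differed from its wild type by a difference that passed. A count per gene does not separate the isoforms.

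Of the 35 astrocyte genes, 17 were called in Dnmt3a1-/- cortex, 13 higher and 4 lower. This was 48.6% of the members, where 17.9% of all genes tested were called, 8.95% higher and 8.91% lower. The median over the members was 0.17 on the log2 scale and 0.01 over all genes. The largest rises were in secreted proteins and surface receptors, and the largest falls were in Fabp7, Lcat and Aqp4. The genes for glutamate uptake and for the filaments Gfap and vimentin were not called. The summed CPM of all 35 members was 31520 to 32440 in Dnmt3a1-/- cortex and 28790 to 30790 in the plain wild type series. In whole tissue, a change in astrocyte number and a change of an RNA in each astrocyte cannot be told apart.

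Of the 7 members that encode secreted proteins, 5 were called higher and 1 lower. Thrombospondin 4 (Thbs4, ENSMUSG00000021702), a matrix glycoprotein, was at 27.1, 27.5 and 31.1 CPM in Dnmt3a1-/- cortex and 11.2, 12.8 and 12.8 CPM in wild type. The groups did not overlap, and the log2 fold change was 1.22 ± 0.10 (edgeR adjusted p = 1.33e-05). Angiotensinogen (Agt, ENSMUSG00000031980), from which angiotensin peptides are cut, was at 69.7, 90.9 and 49.05 CPM against 21.1, 19.9 and 21.6. Its rise, 1.74 ± 0.24 (edgeR adjusted p = 0.00827), was the largest of any member and varied most among the mutant libraries. The call on Agt was lost without the first plain wild type library (edgeR adjusted p = 0.0609) and with libraries of the same number taken as pairs (edgeR adjusted p = 0.0549), with sizes of 1.73 and 1.72. Itih3 (ENSMUSG00000006522), a chain of a hyaluronan-binding protease inhibitor, was at 55.5, 64.7 and 57.6 CPM against 35.3, 39.6 and 42.5. It rose by 0.60 ± 0.09 (edgeR adjusted p = 0.000723), and its groups did not overlap.

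Clusterin (Clu), an apolipoprotein, and Sparcl1, a matrix protein that promotes synapse formation, rose by less, 0.22 ± 0.06 and 0.17 ± 0.05 (edgeR adjusted p = 0.0176 and 0.0371). Apoe, the main lipoprotein of astrocytes, was at 2591, 2816 and 2268 CPM against 2264, 2379 and 2079, overlapping groups that did not pass (0.19 ± 0.07, edgeR adjusted p = 0.0944), but passed with numbers taken as pairs (edgeR adjusted p = 0.00556). Lcat (ENSMUSG00000035237), the enzyme that esterifies cholesterol on those particles, went the other way. Its Dnmt3a1-/- libraries held 22.1, 22.1 and 20.4 CPM, against 36.7, 32.8 and 32.7 in wild type. It fell by 0.67 ± 0.08 (edgeR adjusted p = 0.000269). No Lcat value of the mutant reached the lowest of the 8 wild type cortex libraries, 27.1 CPM.

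All 5 receptors and ectoenzymes were higher in each Dnmt3a1-/- cortex library than in each plain wild type library, and 3 were called. Groups that do not overlap are common here, at 36.1% of all genes, 18.4% with the mutant higher. Scara3 (ENSMUSG00000034463), a scavenger receptor, was at 102, 96.6 and 94.2 CPM against 53.7, 50.6 and 54.1. Its rise of 0.88 ± 0.07 (edgeR adjusted p = 1.33e-05) was the largest of the members relative to its standard error, and the 3 mutant libraries were close together. Paqr6, of the membrane progestin receptor family, was low, at 3.41, 4.57 and 3.04 CPM against 2.04, 2.68 and 1.69. It rose by 0.76 ± 0.21 (edgeR adjusted p = 0.0243), a call lost without the first or the third plain wild type library or the second mutant library, with edgeR adjusted p up to 0.147. Entpd2, an ectonucleotidase that hydrolyses extracellular ATP, rose by 0.39 ± 0.10 (edgeR adjusted p = 0.0154). The FGF receptor gene Fgfr3 (0.19 ± 0.08, edgeR adjusted p = 0.11) and the neurotensin receptor gene Ntsr2 (0.19 ± 0.07, edgeR adjusted p = 0.0613) did not pass, and both passed with numbers taken as pairs (edgeR adjusted p = 0.00614 and 0.00826).

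Transport and contact genes went both ways. Aqp4 (ENSMUSG00000024411), the water channel of vascular endfeet, was at 230.0, 206 and 231 CPM in Dnmt3a1-/- cortex and 322, 288 and 335 in the plain wild type series. It fell by 0.51 ± 0.08 (edgeR adjusted p = 0.000904), with no overlap between these groups. The gap junction gene Gja1 (connexin 43) was at 627, 516 and 571 CPM against 473, 444 and 474 and rose by 0.30 ± 0.07 (edgeR adjusted p = 0.0134). Hepacam, an adhesion protein of astrocyte junctions, and the claudin gene Cldn10 rose by 0.22 ± 0.06 and 0.21 ± 0.07 (edgeR adjusted p = 0.0302 and 0.0407). Hepacam's partner Mlc1 (-0.04 ± 0.06), the bicarbonate carrier gene Slc4a4 (-0.10 ± 0.07), the sodium pump subunit gene Atp1b2 (-0.03 ± 0.06) and the urea carrier gene Slc14a1 (0.03 ± 0.09) were not called. Gjb6 (connexin 30) was at 161, 182 and 192 CPM against 128, 142 and 172, and its 0.27 ± 0.11 passed only where numbers were taken as pairs or all 8 wild type libraries served as control, among the alternatives run (edgeR adjusted p = 0.000403 and 0.0324).

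Of the 6 genes for glutamate, GABA and amino acid handling, 1 was called. Slc1a2, the main glutamate transporter, was at 11310, 10550 and 11230 CPM against 10900, 9840 and 9781, and the groups overlapped (0.11 ± 0.05, edgeR adjusted p = 0.165). The second glutamate transporter gene, Slc1a3, differed by 0.02 ± 0.06, and Glul, which turns glutamate into glutamine, by 0.05 ± 0.06. The called gene was Slc7a10, a carrier of small neutral amino acids such as serine and glycine. It was at 43.5, 45.7 and 44.5 CPM against 54.3, 53.3 and 48.2 and fell by 0.22 ± 0.07 (edgeR adjusted p = 0.0366). That call was lost without any 1 of 5 of the 6 libraries and under DESeq2, with adjusted p up to 0.12 and of 0.0527. The GABA transporter gene Slc6a11 (-0.14 ± 0.06) and Cbs of sulfur amino acid metabolism (0.19 ± 0.09) were not called.

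Fabp7, a fatty acid binding protein of radial glia and young astrocytes, was at 45.04, 29.9 and 32.7 CPM in Dnmt3a1-/- cortex and 66.3, 60.1 and 58.95 in wild type. It fell by 0.81 ± 0.13 (edgeR adjusted p = 0.00276), the largest fall in the list. Gfap, the intermediate filament gene that rises in reactive astrocytes, was at 250.1, 255 and 211 CPM against 247, 259.5 and 219.9 and differed by -0.03 ± 0.08. Vim, another filament gene of immature and reactive astrocytes, differed by 0.03 ± 0.11. The calcium-binding protein gene S100b rose by 0.21 ± 0.07 (edgeR adjusted p = 0.0413). Of 4 metabolic genes, Aldh1l1, a folate enzyme used as a general astrocyte marker, was called, at 148, 164 and 141 CPM against 123, 122 and 123 (0.29 ± 0.07, edgeR adjusted p = 0.0124). The aldolase gene Aldoc (0.12 ± 0.06), the acyl-CoA synthetase gene Acsbg1 (-0.09 ± 0.06) and the glycogen regulator gene Ppp1r3c (-0.00 ± 0.09) were not called.

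**Figure D1:**
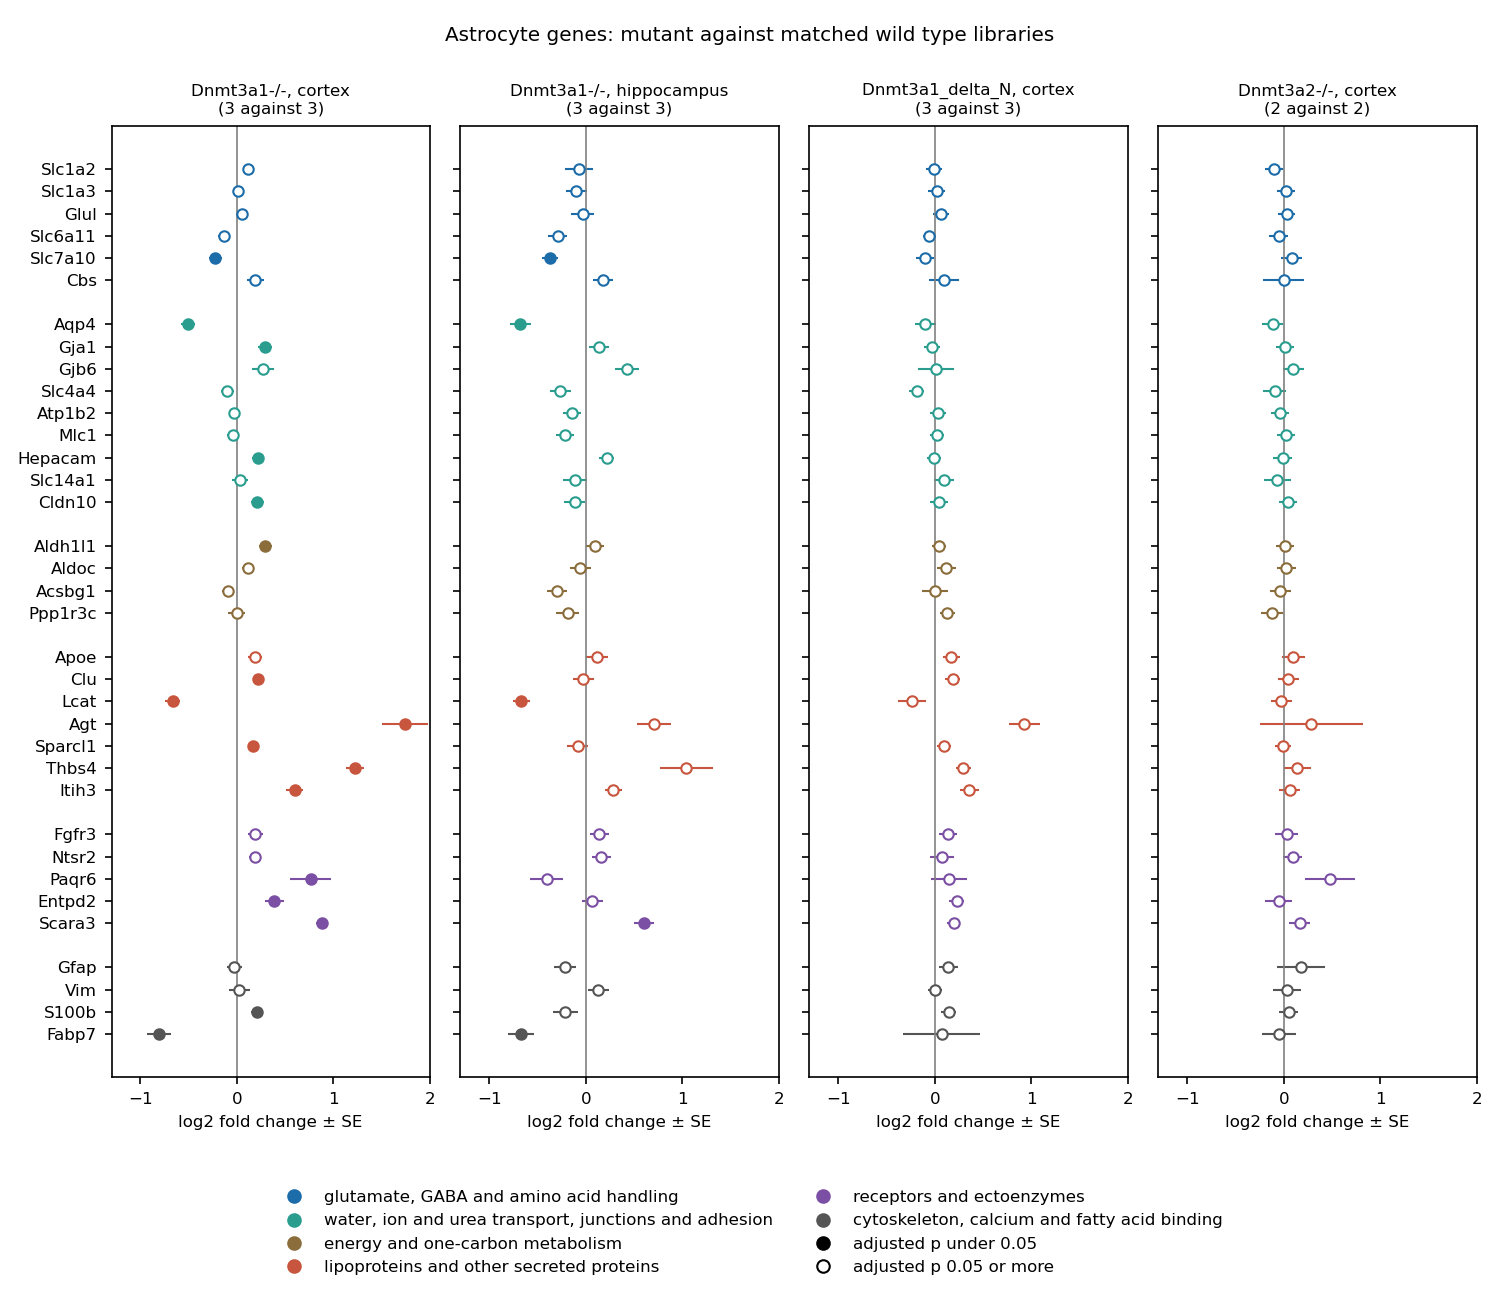
Log2 fold change (x axis) with its standard error for each of the 35 genes (y axis, by role) in the 4 tissue comparisons. Filled points passed an adjusted p of 0.05. In Dnmt3a1-/- cortex 17 points are filled, in Dnmt3a1-/- hippocampus 5, and in Dnmt3a1_delta_N and Dnmt3a2-/- cortex 0.

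The cortex calls differed in how much they rested on single libraries. Thbs4, Scara3, Itih3, Lcat, Fabp7 and Aqp4 were called with any 1 of the 6 libraries left out. The other 11 calls were lost at least once. Hepacam, Sparcl1, Cldn10, S100b and Slc7a10 were each called in 1 of the 6 fits that leave out a library, Clu in 2, Paqr6 in 3, Entpd2 and Gja1 in 4, and Aldh1l1 and Agt in 5, with edgeR adjusted p of up to 0.205, for Sparcl1. In all, 9 members were called without the second plain wild type library, the first mutant library or the second mutant library. Of the 17 called members, 7 changed by at least 1.5-fold, namely Agt, Thbs4, Scara3, Paqr6, Itih3, Lcat and Fabp7. With numbers taken as pairs, 22 members were called, 17 higher and 5 lower, including 16 of the 17, and 31.0% of all genes were called in that fit against 17.9% without pairs. The same-numbered libraries of these groups also had the same sex, so this fit removes a difference between sexes too.

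The 3 wild type cortex series were not alike in these genes. Between the plain and the r series 22 of 35 members were called, all 22 higher in the plain series (median 0.32), where 33.3% of all genes were called. Between plain and n 10 were higher and 1, Thbs4, was lower in the plain series (9.42% and 10.6% of all genes), and between r and n 15 were lower in r (13.5%). Agt was at 21.1, 19.9 and 21.6 CPM in the plain, 12.3, 16.9 and 11.8 in the n and 11.4 and 10.01 in the r series. Gfap was at 247, 259.5 and 219.9, then 188, 215 and 173, then 153 and 173 CPM in the same order, with the r libraries lowest. The summed CPM of all 35 members ran from 28790 to 30790 in plain, 25610 to 27200 in n and 23880 to 24290 in r, while the summed CPM of 14 neuron markers ran from 6493 to 7000, 6367 to 7309 and 8279 to 8492. The part of the neuron RNA share in this was not tested.

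The choice of series bears on the 4 members that were lower. Aqp4 was at 238, 259 and 205 CPM in the n and 212 and 233 in the r series, which overlaps the Dnmt3a1-/- libraries. Against all 8 wild type libraries its difference was -0.22 and was not called (edgeR adjusted p = 0.32). Fabp7 (-0.58, edgeR adjusted p = 0.0707) and Slc7a10 (-0.18, edgeR adjusted p = 0.342) were not called either, and the r series lay within or below the range of the mutant. Its libraries held 37.6 and 35.6 CPM of Fabp7 and 40.2 and 38.1 CPM of Slc7a10. Lcat remained called at -0.64 (edgeR adjusted p = 0.0061). On the higher side Aldh1l1 was lost (edgeR adjusted p = 0.0528) and Gjb6 and Fgfr3 were added, so that 14 members were higher and 1 lower. In 12 members each Dnmt3a1-/- library lay above all 8 wild type libraries, and in 1, Lcat, below them, where 9.52% and 10.9% of all genes did so.

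**Figure D2:**
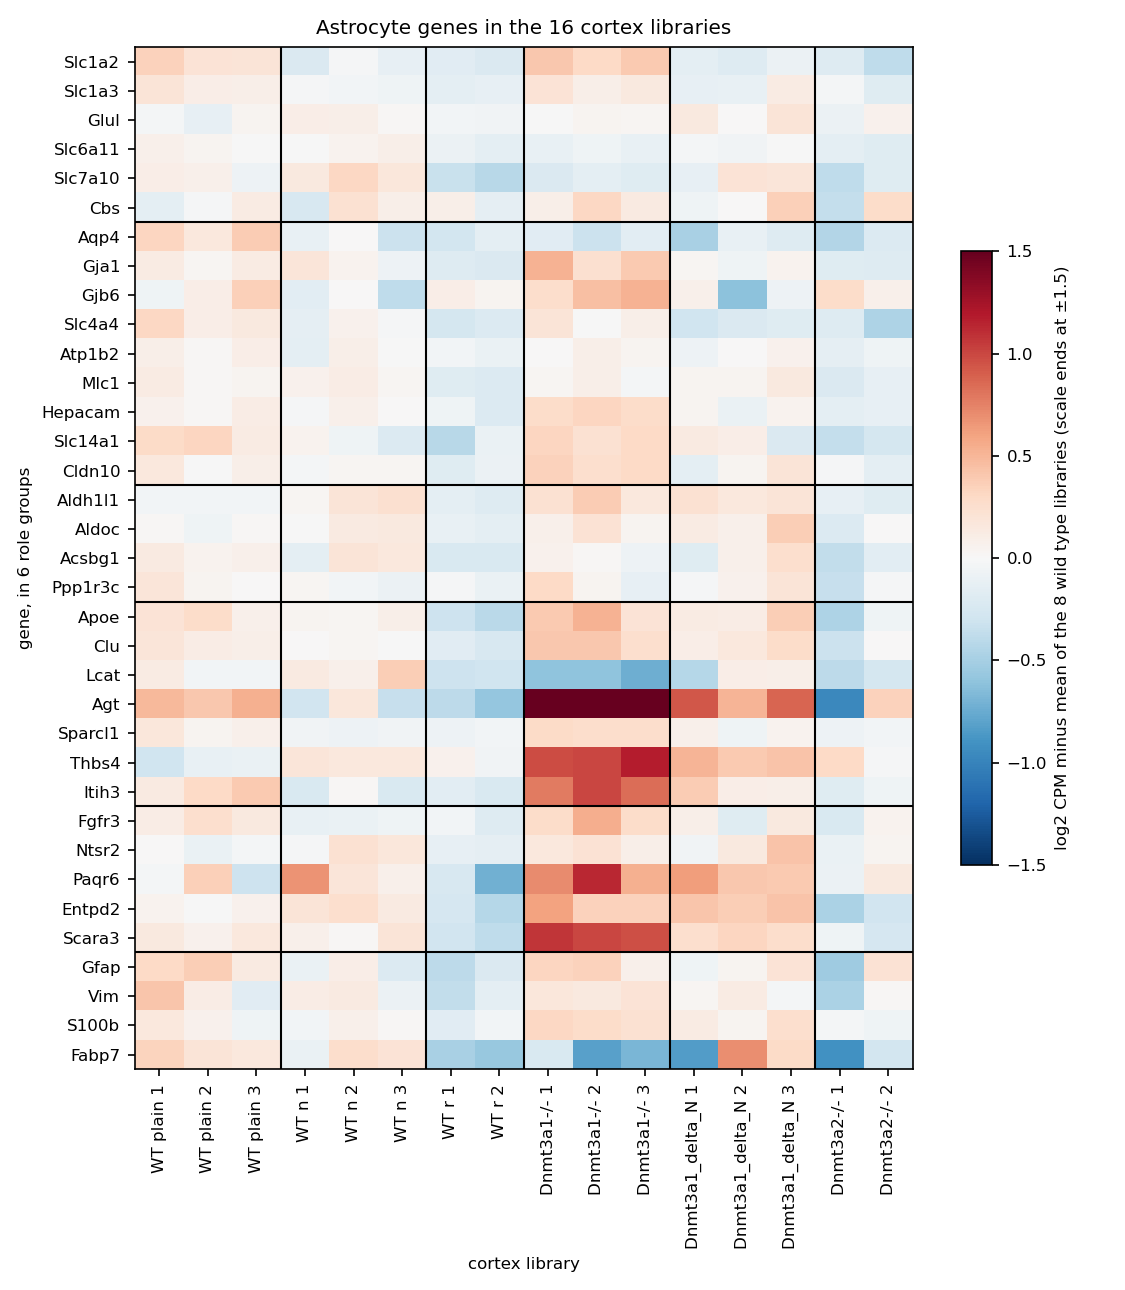
CPM of the 35 genes (rows, by role) in the 16 cortex libraries (columns), as log2 CPM minus the mean of the 8 wild type libraries. Red is higher and blue lower. The Agt, Thbs4, Itih3 and Scara3 rows are red in the 3 Dnmt3a1-/- columns, the Lcat row is blue there, and the 2 wild type r columns are blue in most rows.

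Markers of other cell types moved in the same libraries. Of 14 neuron markers 6 were lower and 0 higher in Dnmt3a1-/- cortex, with a summed level of 5778 to 5979 CPM against 6493 to 7000. The sum over the 18 choroid plexus markers was 1434 to 2889 CPM against 577 to 1483, with a median of 0.92 on the log2 scale and 1 marker called, higher. Ttr, the most abundant of them, was at 1925, 784 and 1132 CPM against 489, 705 and 109.9, so these groups differed widely within themselves. Microglia markers summed to 1465 to 1565 CPM against 1465 to 1658 and endothelial markers to 1352 to 1554 against 1298 to 1498. Within the 12 endothelial markers 3 were called lower, Emcn (-0.67), Itm2a (-0.52) and Tek (-0.34), and Slc2a1 was called higher (0.51). The 14 mural and meningeal markers summed to 753 to 821 CPM against 844 to 1198, with 3 called lower, among them Lum (-1.50) and Rgs5 (-0.59). In the n and r wild type series they summed to 735 to 970 and 607 to 681 CPM, so the mutant lay within the wild type range. Lum, Rgs5 and Emcn of the mutant overlapped the r libraries, and Itm2a lay below them. The 10 ependymal markers summed to 33.3 to 33.46 CPM against 23.2 to 30.7, with 1 called higher, but to 34.3 to 37.2 CPM in the n series. Of 12 myelin and 10 oligodendrocyte precursor markers 2 each were called higher and 0 lower, and of 12 microglia markers 1 was called lower. None of the markers in these 8 lists was at 0 throughout a cortex group. In a further list of 8 Bergmann glia and hindbrain markers, Gdf10 was called higher (1.19 ± 0.09, edgeR adjusted p = 1.33e-05). It was at 21.97, 22.5 and 22.95 CPM against 9.82, 10.6 and 9.06. Hoxa5, Hoxb5 and Hoxc5 of that list were at 0 in the Dnmt3a1-/- and the plain wild type cortex libraries. The part of all these markers in the change of the astrocyte genes was not tested.

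In Dnmt3a1-/- hippocampus 5 of the 35 members were called, 1 higher and 4 lower (14.3%), where 2.52% of all genes were called, 1.69% higher and 0.827% lower. The median over the members was -0.07. All 5 were also called in Dnmt3a1-/- cortex in the same direction, which is 5 of the 17 called there. The control libraries of the 2 tissues are separate, but whether the tissues came from the same mice is not stated.

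Scara3 was at 75.8, 68.04 and 73.3 CPM in mutant hippocampus and 53.7, 41.8 and 46.1 in wild type, a rise of 0.60 ± 0.10 (edgeR adjusted p = 0.00831). Lcat was at 37.2, 31.6 and 35.5 CPM against 56.6, 51.9 and 55.1. It fell by 0.67 ± 0.09 (edgeR adjusted p = 0.00308), was called without each single library, and its change in cortex differed from this by less than 0.01. Aqp4 was at 179, 156 and 181 CPM against 312, 253 and 249.6, a difference of -0.68 ± 0.11 (edgeR adjusted p = 0.00729). Here Aqp4 in all 3 mutant libraries was also below each of the 8 wild type cortex libraries. Fabp7 was at 39.7, 32.1 and 45.6 CPM against 70.8, 57.2 and 58.1 (-0.67 ± 0.13, edgeR adjusted p = 0.024), and Slc7a10 at 45.9, 43.8 and 45.9 against 56.9, 62.4 and 53.8 (-0.37 ± 0.09, edgeR adjusted p = 0.0404). Leaving out the second wild type library ended the calls on Scara3, Fabp7 and Slc7a10, and leaving out the second mutant library ended those on Aqp4, Fabp7 and Slc7a10. Fabp7 and Slc7a10 were also lost without the third wild type or the first mutant library, and Slc7a10 without the third mutant library. The adjusted p then reached 0.0549 for Scara3, 0.0507 for Aqp4, 0.0838 for Fabp7 and 0.175 for Slc7a10.

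No other member was called in hippocampus, among them the main transport genes. Slc1a2 was at 8015, 7581 and 9524 CPM against 10240, 8074 and 7753, and Glul at 2878, 3003 and 3176 against 3327, 2713 and 3098, with log2 fold changes of -0.07 ± 0.15 and -0.03 ± 0.12. Gja1 was at 484, 386 and 474 CPM against 399.8, 390.4 and 414 (0.14 ± 0.10, edgeR adjusted p = 0.53). Its connexin partner Gjb6 held 131, 137 and 157 CPM against 96.3, 93.5 and 123 (0.43 ± 0.12, edgeR adjusted p = 0.0816) and was called by DESeq2. Gfap, at 588, 612 and 609 CPM against 824, 625 and 624, lay below wild type in all 3 libraries but close to 2 of the 3 wild type ones (-0.22 ± 0.12, edgeR adjusted p = 0.355). S100b held 188, 219 and 217 CPM against 286, 227 and 202 (-0.21 ± 0.13, edgeR adjusted p = 0.405), with a sign opposite to that in cortex.

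Other genes that rose in cortex did not pass in hippocampus, although some had sizes of the same order. Thbs4 was at 44.0, 32.4 and 47.3 CPM against 23.1, 12.8 and 24.4, with no overlap and a wide spread (1.04 ± 0.27, edgeR adjusted p = 0.11). Agt was at 106, 132 and 83.4 CPM against 51.3, 64.5 and 77.1 (0.70 ± 0.18, edgeR adjusted p = 0.0767), and was called by DESeq2. Paqr6 had the opposite sign, at 5.98, 7.93 and 6.11 CPM against 7.03, 8.63 and 10.2 (-0.41 ± 0.17, edgeR adjusted p = 0.235). The difference between the cortex and hippocampus effects of Dnmt3a1-/- was tested as an interaction. By edgeR 0 of 35 members passed, 9 had an unadjusted p under 0.05, and by DESeq2 0 passed. Of all genes, 0% passed by edgeR and 5.03% had an unadjusted p under 0.05. The effect on Paqr6 was 1.17 ± 0.29 higher in cortex (edgeR adjusted p = 0.58) and that on Agt 1.04 ± 0.33 (edgeR adjusted p = 0.821), so a tissue difference was not shown for either. The summed choroid plexus markers were 229 to 2902 CPM in mutant and 298 to 382 in wild type hippocampus, set by single libraries, where Ttr reached 507, 1718 and 44.1 CPM in mutant libraries 1, 2 and 3.

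**Figure D3:**
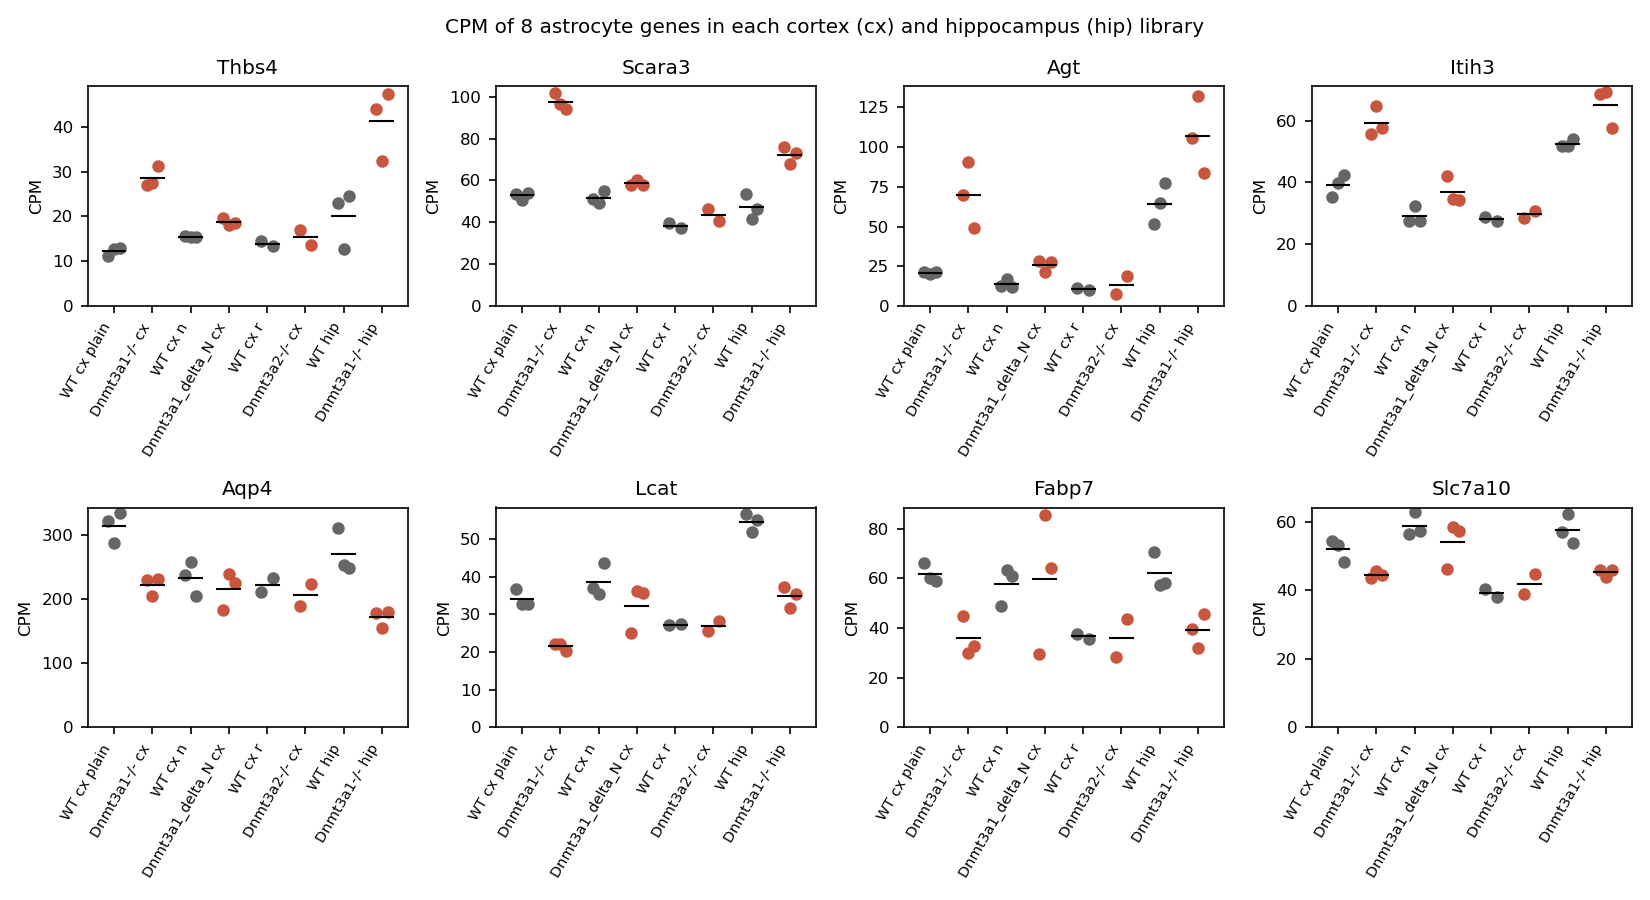
CPM (y axis, from 0) of 8 members in each cortex and hippocampus library, as points, with the group mean as a line. Grey is wild type and red mutant. Thbs4, Scara3, Agt and Itih3 are higher in Dnmt3a1-/- of both tissues than in the matched wild type, with no overlap, and Aqp4, Lcat, Fabp7 and Slc7a10 lower. In hippocampus Thbs4, Agt and Itih3 were not called, and the other members shown were.

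In Dnmt3a1_delta_N cortex, edgeR called 0 of the 35 members and 0% of all genes, and DESeq2 called 0 members. An unadjusted p under 0.05 was reached by 7 members, where 7.98% of all genes did so. In 7 members each mutant library was above each n wild type library and in 1 below (5.74% and 7.07% of all genes). Agt was at 28.6, 21.3 and 27.5 CPM against 12.3, 16.9 and 11.8, with a log2 fold change of 0.93 ± 0.16 (edgeR adjusted p = 0.368). Thbs4 was at 19.6, 18.1 and 18.5 CPM against 15.6, 15.3 and 15.4 (0.30 ± 0.08, edgeR adjusted p = 0.462), and Itih3 at 41.96, 34.6 and 34.4 against 27.4, 32.5 and 27.5 (0.36 ± 0.10, edgeR adjusted p = 0.466). These 3, with the smallest p of the members with a positive value, are secreted proteins called higher in Dnmt3a1-/- cortex. On the lower side, Slc4a4 (-0.19 ± 0.08, edgeR adjusted p = 0.605), Lcat (-0.24 ± 0.15, edgeR adjusted p = 0.746) and Slc7a10 (-0.10 ± 0.10, edgeR adjusted p = 0.846) came first. Gfap was at 192, 206 and 231 CPM against 188, 215 and 173 and Slc1a2 at 7698, 7469 and 8032 against 7343, 8427 and 7865, overlapping in both (0.14 ± 0.10 and -0.01 ± 0.08). Clu, Entpd2, Scara3 and Apoe were the other 4 members whose Dnmt3a1_delta_N libraries all lay above the wild type, at 0.18 ± 0.08, 0.23 ± 0.08, 0.20 ± 0.07 and 0.17 ± 0.09.

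Of the 13 members called higher in Dnmt3a1-/- cortex, 11 had a positive value in Dnmt3a1_delta_N. So did 26 of all 35 members and 51.2% of all genes, so the shared sign says little about the 13. The sizes differed. For Thbs4 the effect of Dnmt3a1-/- exceeded that of Dnmt3a1_delta_N by 0.92 ± 0.12 (edgeR adjusted p = 0.00297) on the log2 scale, and for Scara3 by 0.68 ± 0.09 (edgeR adjusted p = 0.00289). Scara3 was at 57.6, 60.2 and 57.9 CPM in Dnmt3a1_delta_N against 51.01, 48.99 and 55.1, a step far below that of Dnmt3a1-/-. These were the 2 members of 35 that passed the test of the difference (0.103% of all genes did). Both passed in each of the 17 alternatives run. The difference for Agt, 0.81 ± 0.31 (edgeR adjusted p = 0.372), did not pass. Fabp7 varied widely in Dnmt3a1_delta_N, at 29.6, 85.7 and 64.2 CPM against 49.1, 63.2 and 60.9. The first of these mutant libraries was also the lowest in Lcat, at 25.1, 36.2 and 35.7 CPM in the order of the libraries, and in Aqp4, at 184, 239 and 225 CPM. Without it 5 members passed the test of the difference, with Fabp7, Aqp4 and Lcat added at -1.22, -0.53 and -0.59 (edgeR adjusted p = 0.0397, 0.0492 and 0.0313).

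In Dnmt3a2-/- cortex, edgeR called 0 of 35 members and 0.00628% of all genes, 0 members had an unadjusted p under 0.05 (2.87% of all genes did), and DESeq2 called 0 members. The median over the members was 0.02. The members with the smallest p were Paqr6 (0.48 ± 0.26), Scara3 (0.17 ± 0.11) and Thbs4 (0.14 ± 0.14) on the higher side and Ppp1r3c (-0.12 ± 0.11), Slc1a2 (-0.10 ± 0.09) and Aqp4 (-0.12 ± 0.11) on the lower side. Agt was at 7.65 and 18.99 CPM in the 2 mutant libraries and 11.4 and 10.01 in wild type, and Gfap at 138 and 233 against 153 and 173. The 2 mutant libraries thus differed from each other by more than the groups did. Without the first, Gfap and Agt were called higher at 0.50 and 0.80 (edgeR adjusted p = 0.0261 and 0.019), in a fit where the lone mutant library is assumed to vary like the wild type. Ttr was at 10.8 and 1518 CPM in these mutant libraries.

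In wild type nuclei sorted for NeuN all 35 members were lower than in wild type cortex (42.7% of all genes were called lower), with log2 fold changes from -7.12 to -2.03 and a median of -5.28. The comparison sets nuclear RNA of sorted neurons against RNA of whole tissue, so cell type and compartment cannot be told apart. The neuronal marker Rbfox3, which encodes NeuN, was at 203 and 178 CPM in these nuclei and 123.6 to 170.2 CPM in wild type cortex. Of the 14 neuron markers, which include cytoskeletal genes, 2 were called higher and 9 lower in nuclei, with a median of -0.80 (Nefl -1.87, Stmn2 -1.18, Nefm -1.05 and Map2 -0.86), against a median of -5.28 for the astrocyte members. Slc1a3 had the largest drop, from 1717 to 2172 CPM over the 8 cortex libraries to 15.5 and 16.9 CPM (-7.12 ± 0.12, edgeR adjusted p = 2.72e-17). Mlc1 (-6.65 ± 0.13), Apoe (-6.51 ± 0.13) and Aqp4 (-6.45 ± 0.14) came next. The members that dropped least were Slc4a4 (-2.03 ± 0.09), at 86.8 and 96.1 CPM, Paqr6 (-2.84 ± 0.30) and Scara3 (-3.36 ± 0.10). Slc1a2 dropped by less than Slc1a3 did (-3.99 ± 0.11) and was still at 632 and 638 CPM.

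In nuclei labelled Dnmt3a1-/- 34 members were tested, since Slc14a1 had too few reads, and edgeR called 0 (0.246% of all genes were called). DESeq2 called 0 as well, and 1 member, Thbs4, had an unadjusted p under 0.05, as did 8.98% of all genes. Thbs4 was at 1.36 and 1.503 CPM against 1.05 and 0.622 (0.77 ± 0.35, edgeR adjusted p = 0.542). Next on the higher side were Aldh1l1 (0.35 ± 0.18) and Atp1b2 (0.25 ± 0.14), and on the lower side S100b (-0.37 ± 0.19), Aqp4 (-0.37 ± 0.24) and Slc1a3 (-0.22 ± 0.16). Scara3 was at 5.28 and 7.87 against 5.48 and 5.51 CPM, overlapping groups. The summed level of the members was 1190 to 1398 CPM in nuclei labelled Dnmt3a1-/- and 1270 to 1370 in wild type.

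Wild type hippocampus and cortex differed in 20 of the 35 members, 14 higher and 6 lower in hippocampus, where 55.6% of all genes were called, 27.3% higher and 28.3% lower. The hippocampus libraries are a separate set whose files hold 55487 gene identifiers, against 37310 in the cortex files. Region, library set and the list of genes counted cannot be told apart here. Agt was at 51.3, 64.5 and 77.1 CPM in hippocampus and 10.01 to 21.6 CPM in the 8 cortex libraries (2.10 ± 0.12, edgeR adjusted p = 1.1e-08). Gfap was at 824, 625 and 624 CPM against 152.6 to 259.5 (1.76 ± 0.08, edgeR adjusted p = 1.43e-10), and Paqr6 at 7.03, 8.63 and 10.2 against 1.27 to 3.34 (2.03 ± 0.17, edgeR adjusted p = 5.9e-08). Hippocampus and cortex did not overlap in any of these 3. Slc14a1 (0.96 ± 0.10), Itih3 (0.67 ± 0.07) and Lcat (0.66 ± 0.07) were also higher in hippocampus. The lower members changed little, led by Gjb6 (-0.43 ± 0.11), Cldn10 (-0.24 ± 0.06) and Slc1a3 (-0.23 ± 0.06), followed by Aldh1l1 (-0.22 ± 0.07), Hepacam (-0.15 ± 0.06) and Gja1 (-0.15 ± 0.06). The 6 higher members named here were called in each of the 17 alternatives run, and each of the 6 lower ones lost its call in at least 2.

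**Figure D4:**
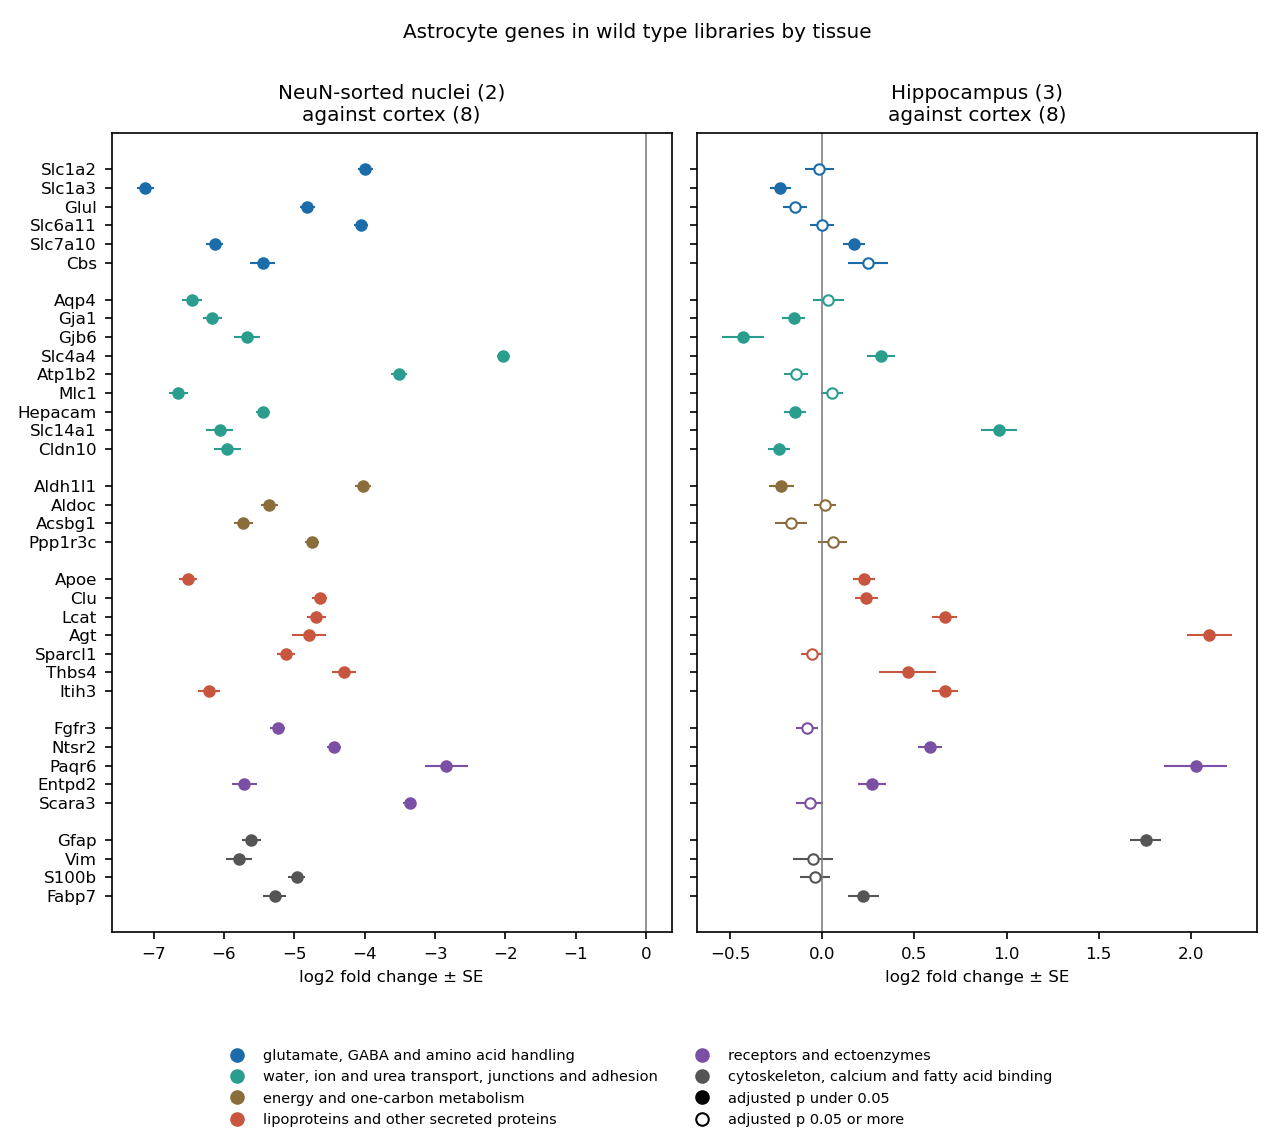
Log2 fold change (x axis) with its standard error of the 35 genes (y axis, by role) in wild type nuclei against cortex, left, and hippocampus against cortex, right. Filled points passed an adjusted p of 0.05. All 35 points lie left of -2 in nuclei, and Agt, Paqr6 and Gfap lie farthest right in hippocampus.

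Members differed in how much they varied between replicates. Over the 8 groups of cortex and hippocampus, the standard deviation of log2(CPM + 0.1) within a group was 0.06 for Hepacam and Sparcl1, and 0.37 for Agt and Fabp7.

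A second list of 50 astrocyte genes outside the members gave 12 higher and 9 lower in Dnmt3a1-/- cortex (42.0%, where 17.9% of all genes were called, 8.95% higher and 8.91% lower), with a median of 0.06. The metallothionein gene Mt2, which encodes a metal-binding stress protein, was at 126, 149 and 140.3 CPM against 70.3, 75.02 and 70.1 (0.94 ± 0.08, edgeR adjusted p = 1.41e-05). The wild type n libraries held 116, 122 and 116 CPM of Mt2, nearer to that mutant than to the plain series. Kcnj10, the potassium channel Kir4.1 that sits with Aqp4 on endfeet, was at 335, 358 and 366 CPM against 635, 594 and 639.6 (-0.82 ± 0.07, edgeR adjusted p = 1.33e-05). It was lower in each mutant library than in any of the 8 wild type cortex libraries, unlike Aqp4. The metalloproteinase inhibitor gene Timp4 (0.63 ± 0.06), Mt1 (0.78 ± 0.08) and the fatty acid transporter gene Slc27a1 (0.48 ± 0.08) rose. Btbd17 (-0.67 ± 0.11), the BMP antagonist gene Chrdl1 (-0.53 ± 0.09) and the glutamine transporter gene Slc38a3 (-0.36 ± 0.07) fell. Btbd17 and Chrdl1 were below all 8 wild type cortex libraries in each mutant library. Slc38a3, at 107, 115 and 110 CPM in the mutant, was above the wild type r libraries, at 99.2 and 95.1 CPM. In hippocampus 4 of the 50 were called (8.0%, against 2.52% of all genes). Of these 3 rose, Etnppl (1.37 ± 0.17), Mt1 (0.65 ± 0.12) and Mt2 (0.49 ± 0.11), and Kcnj10 fell (-0.73 ± 0.15, edgeR adjusted p = 0.0273). Etnppl was at 109, 113 and 125 CPM in Dnmt3a1-/- cortex against 38.2, 34.3 and 58.4 in the plain wild type series. In Dnmt3a2-/- cortex, Dnmt3a1_delta_N cortex and nuclei labelled Dnmt3a1-/- edgeR called 0 of 50, 0 of 50 and 0 of 49 of these genes, DESeq2 called 0 in each, and 5, 7 and 4 had an unadjusted p under 0.05, where 2.87%, 7.98% and 8.98% of all genes did.

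Of 33 genes linked to reactive astrocytes, 29 were tested in Dnmt3a1-/- cortex and 6 were called, all higher (20.7%, where 8.95% of all genes were called higher and 8.91% lower). Steap4, a metalloreductase, was at 1.703, 2.44 and 2.58 CPM against 1.02, 0.932 and 0.787 (1.32 ± 0.23, edgeR adjusted p = 0.00222). Aspg (1.14 ± 0.18), the protease inhibitor gene Serpina3n (0.74 ± 0.14) and the chemokine gene Cxcl10 (1.54 ± 0.31) rose as well. Cxcl10 was low, at 1.02, 1.52 and 2.01 CPM against 0.491, 0.708 and 0.394. Steap4 also rose in hippocampus (2.10 ± 0.41, edgeR adjusted p = 0.0185), from a level near the floor. It was at 1.06, 1.37 and 1.12 CPM there against 0.346, 0.336 and 0.1365 in wild type. Aspg rose in nuclei labelled Dnmt3a1-/- (1.47 ± 0.22, edgeR adjusted p = 0.00983). Unlike the 35 members, all lower in wild type nuclei, Aspg was higher there than in wild type cortex (1.08 ± 0.17, edgeR adjusted p = 1.38e-05). The cell type behind the Aspg signal was not tested. Gfap and Vim, the classic reactive genes among the members, differed by -0.03 ± 0.08 and 0.03 ± 0.11 in cortex.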

How the data were processed

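RNA was measured by poly(A) sequencing with a stranded kit, per the labels' protocols, in 26 libraries of 10 groups. The deposited values are raw read counts per Ensembl gene, and the submitters' processing notes name STAR 2.5.4a, HTSeq 0.11.0 and build mm9; the strand setting of the counting is not given in the sources used here. Lines that name no gene held 21.14 to 36.97% of the counts and were left out of totals and tests. From the counts, CPM and edgeR 4.0.16 quasi-likelihood tests (filterByExpr, TMM, robust; R 4.3.3, limma 3.58.1) were computed on each comparison's own groups, with Benjamini-Hochberg adjustment over all genes tested, called under 0.05. The standard error is the log2 fold change divided by the root of its F statistic. Genes were matched to symbols through a table of Ensembl identifiers and symbols, which named 32620 of 37310 and 55394 of 55487 identifiers; tests between tissues used the 32601 shared ones.

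The members and the other gene lists were chosen with earlier results of these data known. All members are accounted for, and tests are given for called members or, where there were none, for the 3 with the smallest p in each direction (up to 6 for differences of effects and tissues, up to 4 from other lists). Nothing in the labels says that the libraries came from separate mice, so p-values measure the spread between these samples. Replicate pairs all differed by more than sampling noise, with a chi-square per degree of freedom of at least 6.32. Deviations of same-numbered libraries correlated at 0.184 to 0.376 in Dnmt3a1-/- cortex and 0.24 to 0.419 in Dnmt3a1_delta_N, so these numbers were taken as pairs in an alternative fit. In hippocampus the correlations ran from -0.056 to 0.272, and Dnmt3a2-/- cortex (0.111) and nuclei (0.297) had 2 pairs only. On simulated counts with 200 changed genes the edgeR step recovered 60.0% of log2 changes of 0.5 and 84.8% of changes of 1.0 for Dnmt3a1-/- cortex (15933 genes), 53.5% and 92.0% for Dnmt3a1_delta_N (15881), 36.1% and 82.8% for Dnmt3a2-/- (15929), 37.0% and 79.2% for hippocampus (15727) and 17.0% and 69.7% for nuclei (15860). How far these percentages apply to the measured counts was not tested. In the measured counts edgeR called 0 of 15881 genes in Dnmt3a1_delta_N cortex and 1 of 15929 in Dnmt3a2-/- cortex. Alternatives were RLE scaling, DESeq2 1.42.0, no filter, each library left out, pairing by number, sex as a term, and other wild type series.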

Additional observations from a re-analysis of the deposited data

Results flagged for a closer look

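The effect of Dnmt3a1-/- on cortex differed from that of Dnmt3a1_delta_N, by an interaction test across both mutants and their own wild type series, for 2 members and 2 other astrocyte genes. Thbs4 differed by 0.92 on the log2 scale (edgeR adjusted p = 0.00297), with all 3 Dnmt3a1-/- and all 3 Dnmt3a1_delta_N libraries above their wild type. The log2 difference of wild type plain from n was -0.30 for Thbs4 (edgeR adjusted p = 0.0324). Scara3 differed by 0.68 (edgeR adjusted p = 0.00289), again with all 6 mutant libraries above their own wild type. Mt2 differed by 1.03 (edgeR adjusted p = 0.0382), and its wild type level also differed between the 2 series, at 70.1 to 75.02 CPM in plain and 116 to 122 CPM in n. Kcnj10 differed by -0.63 (edgeR adjusted p = 0.0437), and its wild type level was 0.46 higher on the log2 scale in plain than in n (594 to 639.6 against 429 to 496 CPM, edgeR adjusted p = 0.000485). It was lower than the wild type in all 3 Dnmt3a1-/- libraries and overlapped it in Dnmt3a1_delta_N. The part of the wild type series in these differences was not tested.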

How the results depend on the processing

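Over the alternatives, 133 of 146 counts of called members stayed within 1.5 times the main count. That figure pools all comparisons, among them some with 0 members called in the main fit and 1 with all 35 called. Of the values for single genes 681 kept their direction and side of the threshold, 92 were no longer past it and 6 changed sign, all 6 of differences that were small or had not passed. Without a filter on low counts 8 members were called in Dnmt3a1-/- hippocampus, and with the n series alone 10 differed between wild type hippocampus and cortex. Against all 8 wild type libraries Paqr6 and Scara3 in Dnmt3a2-/- had the opposite sign, at -0.0527 and -0.19, as had Slc7a10 in Dnmt3a1_delta_N, at 0.0738. With the r series alone Gja1 in hippocampus against cortex was 0.0389.

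With single libraries left out, the count of called members ran from 9 to 13 in Dnmt3a1-/- cortex, 0 to 2 in Dnmt3a2-/- cortex and 2 to 5 in Dnmt3a1-/- hippocampus. It ran from 2 to 5 for the difference between Dnmt3a1-/- and Dnmt3a1_delta_N, from 6 to 11 for plain against n (6 without the third n library), and from 5 to 14 for r against n (5 without the second r library and 9 without the first). In Dnmt3a2-/- Thbs4 then ran from -0.0415 to 0.29 and Ppp1r3c from -0.29 to 0.0219, with the changed signs where the first mutant library was left out. The lone library of a group is then assumed to vary like the other group. The cause of these shifts was not tested.

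With the replicate block, that is, with same-numbered libraries as pairs, 22 members were called in Dnmt3a1-/- cortex in place of 17 (31.0% of all genes in place of 17.9%), and Agt was lost (1.72, edgeR adjusted p = 0.0549). In hippocampus same-numbered libraries also had the same sex, so the block there removes a difference between sexes too. It called 5, 4 of them among the 5 of the fit without it, and Slc7a10 was lost (edgeR adjusted p = 0.102). It changed the calls of no other mutant comparison by over 1.5 times. Each member had at least 30 reads in every tissue library and at least 4 in every nuclei library; the effect of depth on the calls was not tested.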
